A study of Arabidopsis thaliana with 21 samples.

Results

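Root transcripts of Arabidopsis thaliana seedlings fixed at the end of parabola 10 of an aircraft flight were compared with those of seedlings fixed at the midpoint of parabola 1 in the tube operated by crew member A. Both groups were wild-type plants of the Wassilewskija (WS) cultivar, 12 days old and grown under 24 h light, and neither carried a transgene or received a treatment other than the flight. The comparison used 6 of 21 arrays, 3 per group, and covered the 16722 of 38408 probe sets that the platform annotation pairs with exactly 1 gene. Values are log2 expression values made by the authors with RMA, a method that corrects background, quantile-normalizes the arrays and summarises the probes of a probe set, so a difference of 1 is a 2-fold change. A quantile-normalized table cannot show a shift of all transcripts at once.

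The C-9 aircraft flew parabolas, in which a climb at increased gravity passes into a phase of near weightlessness. The plants were held in Kennedy Space Center Fixation Tubes, which flood them with the preservative RNAlater when operated by hand, and whole roots were dissected afterwards. Tube A and tube B were operated by different crew members at the same moment, the top of parabola 1. The other 4 tubes were fixed in level flight, at the start of parabola 1, and at the ends of parabolas 1 and 3. The 3 arrays of a group came from root pools of a single tube, so that stage and tube cannot be told apart here and the p-values measure the spread between pools of 1 tube only. In whole roots, fewer cells of a type and less RNA per cell cannot be told apart either. Tube A stood apart from more than the end of parabola 10, since it differed from level flight in 864 probe sets (5.17%), 270 of them higher (1.61%) and 594 lower (3.55%), where tube B differed from level flight in 8 (0.0478%), 3 higher (0.0179%) and 5 lower (0.0299%). Parabola 10 end differed from level flight in 245 (1.47%), 81 higher (0.484%) and 164 lower (0.981%). These counts share arrays and use the call rule given next to the main counts.

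Plant roots sense changes of load and direction through statoliths in the root cap and through mechanosensitive calcium channels, and touch-type stimuli are known to change within minutes the transcripts of calmodulin-like proteins, zinc finger and WRKY transcription factors and cell wall enzymes. Sugar shortage, known to follow when growth or respiration outpaces supply, raises transcripts for the breakdown of amino acids through the kinase SnRK1. Detoxifying enzymes such as UDP-glycosyltransferases, glutathione transferases and reductases of reactive carbonyls form the usual answer of roots to oxidative and chemical stress. These roles are background and were not measured here.

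At the end of parabola 10, transcripts of 10 of 55 UDP-glycosyltransferases, of 4 of 7 listed genes of amino acid breakdown and sugar starvation and of the regulators WRKY22, WRKY6 and STZ were higher than in tube A, and those of 5 of 34 expansins and xyloglucan endotransglucosylases were lower. A probe set counts as called when its adjusted p (limma, Benjamini-Hochberg over all named probe sets) was under 0.05. By this rule 938 of 16722 probe sets were called (5.61%), 477 higher (2.85%) and 461 lower (2.76%). A change of at least 2-fold was reached by 53 of the higher (0.317% of those tested) and 60 of the lower ones (0.359%). The 3 arrays of one group lay apart from the 3 of the other in 916 of the called probe sets (5.48% of those tested), and over all probe sets in 3547 (21.2%), 1796 with parabola 10 end higher (10.7%) and 1751 with it lower (10.5%). The median difference over all 16722 was -0.01, and 2882 (17.2%) had an unadjusted p under 0.05. With the tube as a random block the calls numbered 103, with only the 6 arrays in the fit 433, and without 1 array between 490 (parabola 10 end replicate 2 left out) and 822, with 493 without tube A replicate 2 and 600 without parabola 10 end replicate 1.

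Called probe sets were mostly bright. Of the 477 higher ones, 350 lay in the brightest quartile of all probe sets and 3 in the dimmest. Of the 461 lower ones, 201 lay in the brightest quartile, 195 in the next and 6 in the dimmest. In the brightest quartile 8.37% were called higher and 4.81% lower, against which the counts of lists of bright genes are to be read. The median level of the higher set was 6.15 and that of the lower set 4.75, on the mean of 21 arrays, beside 2.97 over all.

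**Figure D1:**
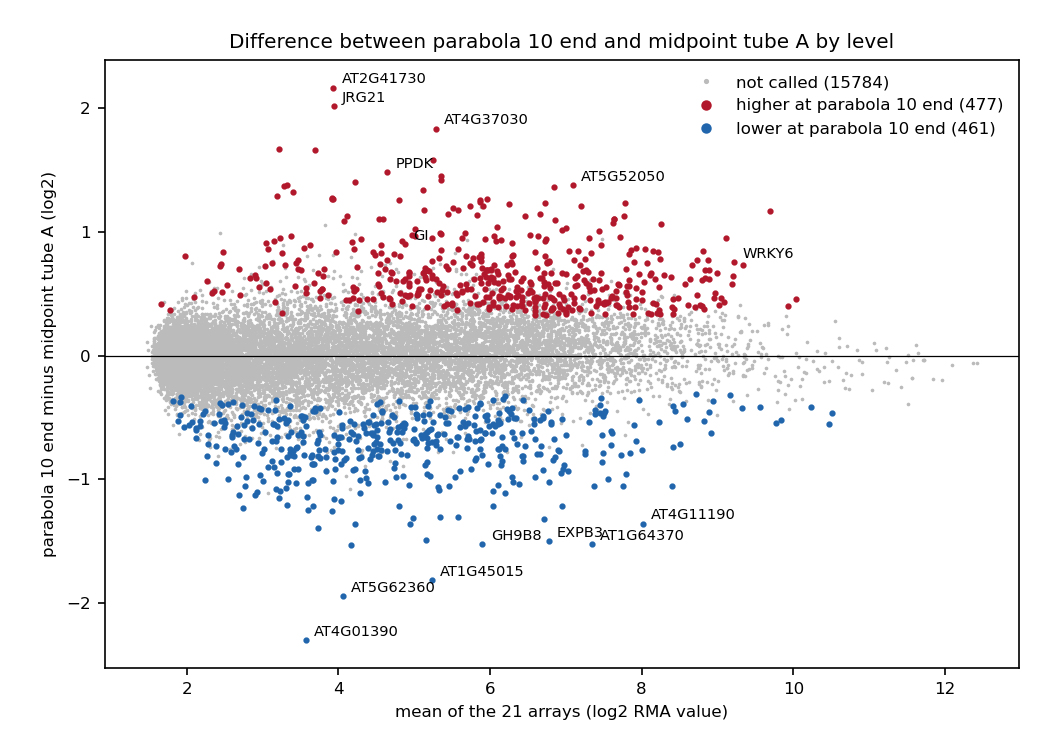
Difference between parabola 10 end and midpoint tube A (y axis, log2) against the mean level over 21 arrays (x axis, log2 RMA value), 1 point per probe set with 1 gene; red points are the 477 called higher, blue points the 461 called lower and grey points the rest. Called points are sparse at the dim end, and the labelled extremes reach from -2.30 (AT4G01390) to 2.17 (AT2G41730).

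The largest rise among the genes named by the rule was that of AT2G41730, which has only a locus identifier in the annotation and stood on the list of oxidative stress genes. It measured 2.81, 2.49 and 3.68 in tube A and 5.25, 5.33 and 4.90 at the end of parabola 10. The groups did not overlap, and the difference was 2.17 ± 0.44 (SE, adjusted p = 0.00443), a 4.49-fold rise. With the tube as a random block its call was lost (adjusted p = 0.101). JRG21, the jasmonate-regulated gene 21, measured 3.32, 2.97 and 3.33 against 5.33, 5.29 and 5.05. All 3 late arrays lay at least 1 unit above every array of tube A, and the difference of 2.02 ± 0.18 (adjusted p = 4.49e-06) had a small error for its size. It was the only riser among the 7 measured genes of the jasmonate list, whose median difference was 0.00. The other 6, 5 jacalin-related lectins and the methyltransferase JMT, lay between -0.29 and 0.07 and did not pass. JRG21 was known from earlier results of these data.

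AER, the alkenal reductase that removes reactive carbonyls formed from oxidized lipids, measured 2.99, 2.52 and 3.88 in tube A and 4.92, 4.85 and 4.6 later. The groups were separate, with a rise of 3.17-fold (1.66 ± 0.25, adjusted p = 0.000473). BGLU28, a beta-glucosidase, rose 3.19-fold (adjusted p = 0.00941) from 2.51, 2.06 and 2.80 to 4.44, 2.88 and 5.07. Its second late array was only just above the highest array of tube A, so its size rests on the other 2 arrays. With the tube block its call was lost (adjusted p = 0.156). AT5G52050, which encodes the efflux carrier DTX50 of the MATE family, rose from 6.12, 6.25 and 6.62 to 7.56, 8.19 and 7.38. That is a clear separation at a well-measured level (2.60-fold, adjusted p = 0.00104).

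Among the remaining genes with the largest rises, 6 have no name in the annotation used. AT4G37030 rose by 1.84, AT1G76470 by 1.58, AT5G57510 by 1.45, AT1G10585 by 1.42, AT2G43620 by 1.41 and AT2G38823 by 1.38, with adjusted p between 3.29e-05 and 0.0202. With the tube block AT5G57510, AT2G43620 and AT2G38823 lost their call (adjusted p = 0.0724, 0.240 and 0.131). AT1G10585 had the least spread of the 6, at 4.51, 4.81 and 4.80 in tube A against 6.27, 5.86 and 6.24. AT2G38823 was uneven, at 5.30, 3.62 and 4.46 late against 3.20, 2.68 and 3.36.

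**Figure D2:**
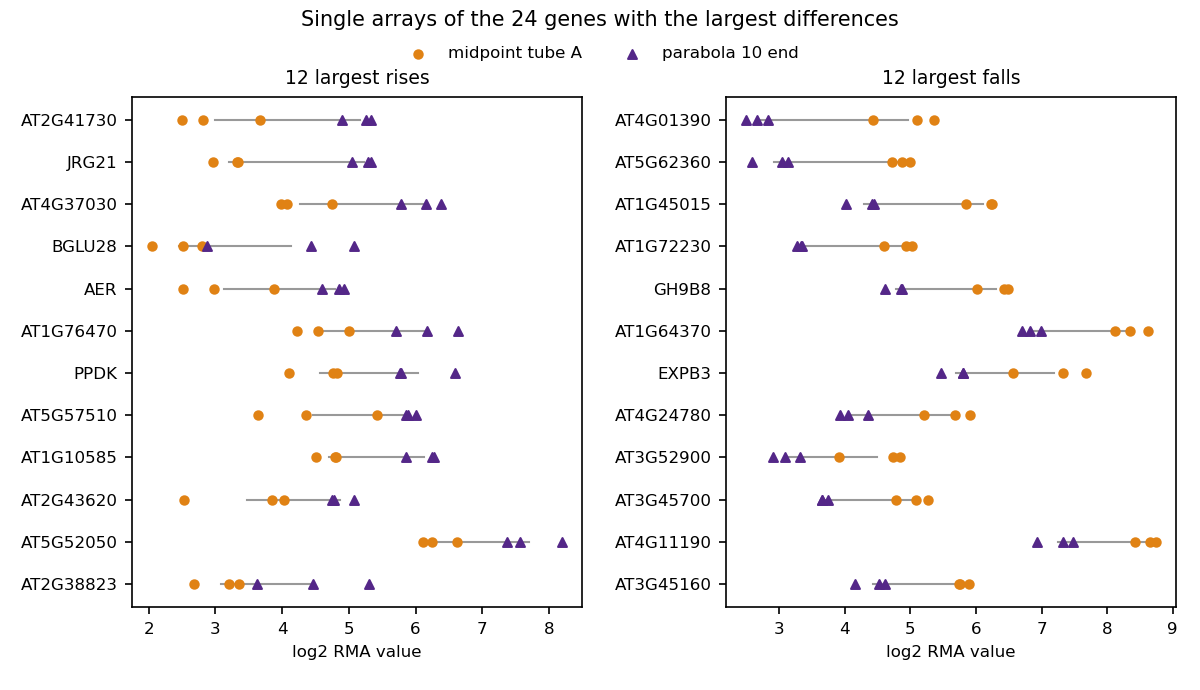
Log2 RMA values of single arrays (x axis) for the 12 largest rises (left) and the 12 largest falls (right) among named genes; orange circles are the 3 arrays of midpoint tube A, purple triangles the 3 arrays of parabola 10 end, and the grey line joins the group means. Circles and triangles do not overlap for any of the 24 genes, which the choice of genes required, and come closest for BGLU28, at 2.80 and 2.88.

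In the oxidative stress list 3 of 5 measured members rose and none fell, beside 2.85% higher over all probe sets, and the median difference was 0.96. The risers were AT2G41730, the zinc finger repressor STZ (also called ZAT10) and the glutathione transferase GSTU25. GSTU25 measured 6.42, 5.51 and 7.15 against 7.51, 7.33 and 7.34, a 2.04-fold difference (adjusted p = 0.0253) in which tube A was the more variable group. The 2 that did not pass, AT2G21640 and the mitochondrial NAD(P)H dehydrogenase NDB2, differed by 0.58 and 0.49. With the tube block none of the 3 risers passed, at adjusted p of 0.101 for AT2G41730, 0.0532 for STZ and 0.270 for GSTU25. STZ was known from earlier results of these data. Of the 15 glutathione transferases, 2 rose, GSTU25 and GSTU16 (by 0.48), and 1 fell, GSTU18 (by 0.58), around a median of -0.10. These were 13.3% and 6.67%, beside 2.85% higher and 2.76% lower over all probe sets.

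UDP-glycosyltransferases, which attach sugars to hormones, defence compounds and foreign chemicals, had the most risers of the lists examined. Of 55 measured members, 10 were higher (18.2%, beside 2.85% over all) and none was lower, while the median over the family was only 0.09. With the tube block 1 of the 10, UGT76B1, kept its call (adjusted p = 0.0244). UGT76B1, which glycosylates isoleucic and salicylic acid in defence, measured 7.0, 6.74 and 7.50 in tube A and 8.19, 8.36 and 8.02 at the end of parabola 10. The late arrays all lay above those of tube A (2.15-fold, 1.11 ± 0.16, adjusted p = 0.000412). UGT73B4 moved from 6.87, 6.56 and 7.28 to 8.07, 8.01 and 7.85 (2.11-fold, adjusted p = 0.00167). UGT73B2 rose by 0.82 (adjusted p = 0.00217) and UGT87A2 by 0.62 (adjusted p = 0.00366).

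Of these 10, 5 belonged to subfamily UGT73. UGT73B5 rose by 1.01 (adjusted p = 0.00913), UGT73D1 by 0.95 (adjusted p = 0.00556) and UGT73C7 by 0.95 (adjusted p = 0.00594), and UGT73B1 had 0.50 with an adjusted p of 0.0537. UGT73B5 and UGT73B4 are neighbours on chromosome 2, and UGT73D1 and UGT73C7 are neighbours on chromosome 3. These copies are similar in sequence, and whether the probes tell them apart was not tested, so their rises are not counted as independent. UGT73D1 was known from earlier results of these data. Outside the subfamily, UGT89B1, UGT76E11 and UGT85A2 rose by 0.49, 0.60 and 0.40. The lowest value of the family was that of UGT72B3, at -0.59 with an adjusted p of 0.0832.

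Amino acid breakdown was higher as well. In the list of branched-chain amino acid breakdown and sugar starvation genes 4 of 7 measured members rose and none fell, beside 2.85% higher over all probe sets and 8.37% in the brightest quartile, with a median of 0.56. With the tube block 1 of them, ASPGB1, kept its call (adjusted p = 0.0349), while AT1G21400, MCCB and AKINBETA1 had adjusted p of 0.159, 0.249 and 0.329. ASPGB1 was known from earlier results of these data. ASPGB1, an asparaginase that frees ammonium from asparagine, measured 6.56, 6.10 and 6.85 in tube A and 7.83, 7.89 and 7.50 late. This was a 2.35-fold rise without overlap (adjusted p = 0.000756). AT1G21400, a locus of that list without a name in the annotation, measured 5.87, 6.09 and 5.99 against 6.99, 7.77 and 7.01 (2.41-fold, adjusted p = 0.00990). MCCB, a subunit of methylcrotonyl-CoA carboxylase in leucine breakdown, went from 8.77, 8.82 and 8.60 to 9.36, 9.70 and 9.31, a smaller step of 0.73 ± 0.18 (adjusted p = 0.0217) at a high level. AKINBETA1, a regulatory subunit of SnRK1, rose by 0.56 (adjusted p = 0.0372).

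The second parabola 10 end array was the highest of the 3 for AT1G21400, MCCB, AKINBETA1 and PPDK. PPDK, pyruvate orthophosphate dikinase, which makes phosphoenolpyruvate from pyruvate, measured 4.83, 4.76 and 4.10 in tube A and 5.78, 6.59 and 5.77 late, with no overlap (2.79-fold, adjusted p = 0.00375, and 0.0920 with the tube block). A wider list of amino acid breakdown and gluconeogenesis genes was drawn up after these values had been seen, and its count is therefore a description. In it 7 of 11 measured members were higher and none lower, with a median of 0.63 (1 of 11, ASPGB1, with the tube block). All 11 were brighter than the median of the arrays. Over all probe sets 2.85% were higher, and 8.37% in the brightest quartile. Beside those above it held the glyoxylate cycle enzyme ICL (1.13, adjusted p = 0.0173), the ornithine aminotransferase DELTA-OAT (0.63, adjusted p = 0.00482) and the aldehyde dehydrogenase ALDH6B2 of valine breakdown (0.48, adjusted p = 0.0135). The electron carrier ETFQO, which takes electrons from that pathway, had 0.55 with an adjusted p of 0.0631. Of the 11 autophagy genes only ATG8E was called, with a rise of 0.66 (adjusted p = 0.0137).

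Regulators of defence and touch responses were higher in part. WRKY22, a transcription factor downstream of flagellin perception, measured 3.54, 3.01 and 3.82 in tube A and 4.63, 4.67 and 4.39 late (2.15-fold, adjusted p = 0.00162), and the groups did not overlap, but with the tube block its adjusted p was 0.0552. WRKY6, a regulator of senescence and phosphate responses, rose from 8.70, 8.59 and 8.92 to 9.53, 9.50 and 9.45 (0.76 ± 0.10, adjusted p = 0.000187), a small step with little spread. These were 2 of 7 measured WRKY factors, whose median difference was 0.10, beside 2.85% higher over all probe sets and 8.37% in the brightest quartile. WRKY22 was known from earlier results of these data. In the list of pattern-triggered immunity 1 of 5 measured members, WRKY22 itself, passed, while all 5 lay above 0. GRX480 had 0.93 and an adjusted p of 0.110, with overlapping arrays.

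STZ, a repressor induced by cold, salt and touch, measured 6.72, 6.77 and 7.35 in tube A and 7.95, 7.94 and 7.82 late (1.94-fold, adjusted p = 0.00148). The calmodulin-like CML38 measured 3.21, 3.38 and 3.64 against 4.39, 4.29 and 4.06 (1.79-fold, adjusted p = 0.0132). Both were separate between the groups, and they made 2 risers of 6 measured touch genes, with a median of 0.28 and no fall. Over all probe sets 2.85% were higher, and 8.37% in the brightest quartile. Both risers were known from earlier results of these data. With the tube block neither passed, and CML38 had an adjusted p of 0.187. EXO, CML37, CML42 and AT1G76640 lay between -0.04 and 0.30 without passing. In the wider list of calmodulin-like and calcium signalling genes CML38 was the only call among 17, with a median of 0.04.

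The ubiquitin ligases PUB22 and PUB23, which damp immune and drought responses, rose by 0.85 (adjusted p = 0.00144) and 0.58 (adjusted p = 0.00720), and neither passed with the tube block. PUB22 measured 6.40, 6.04 and 6.53 in tube A and 7.25, 7.23 and 7.05 late. The RING-type ligase ATL4H fell by 0.65 (adjusted p = 0.00240), and the median over the 16 measured U-box and ATL ligases was 0.01. The clock gene GI, GIGANTEA, measured 5.05, 4.56 and 4.79 in tube A and 5.93, 5.49 and 5.68 late (1.87-fold, adjusted p = 0.000640), while COR27 and AT4G33980, the other 2 measured clock genes, differed by 0.16 and 0.06. GI was known from earlier results of these data. CYP71B6, a cytochrome P450 of indole metabolism, rose by 0.80 (adjusted p = 0.000219). It was the only call among 27 genes matched by CYP symbols, whose median was -0.06. Most of these were CYP71B genes and 7 were brighter than the median of the arrays, so the P450 family as a whole was not covered. Of the 6 peroxidases in the list, PRX52, known for lignin formation, and AT5G66390 (peroxidase 72) rose by 0.75 and 0.46. These were 33.3% of the list, beside 2.85% higher over all probe sets. With the tube block neither passed (adjusted p = 0.134 and 0.310). Matching by symbol did not cover the whole peroxidase family. AT3G21770, a peroxidase outside the list, fell by 1.02 and kept its call with the tube block (limma, adjusted p = 0.00341). Of chaperones, the symbols on the list matched 2 genes, which rose, the cochaperone ROF2 (AT5G48570) by 0.77 (adjusted p = 0.0172) and the plastid chaperone HSP93-III by 0.46 (adjusted p = 0.00552). With the tube block neither of these 2 passed (adjusted p = 0.219 and 0.114). The share called higher was 2.85% over all probe sets and 8.37% in the brightest quartile. In the low-oxygen list 1 of 8, AT4G24110, rose by 0.74 (adjusted p = 0.00102), and PDC2, a fermentation enzyme, had 0.04.

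Falls included cell wall loosening genes. Of 34 measured expansins and xyloglucan endotransglucosylases 5 were lower (14.7%, beside 2.76% over all) and none was higher, and the median was -0.11. With the tube block 2 of them, EXPB3 and XTH32, kept their call, while EXPA4 had an adjusted p of 0.0540 and EXPA15 of 0.129. EXPB3, a beta-expansin, measured 6.56, 7.33 and 7.68 in tube A and 5.80, 5.47 and 5.80 late. Its arrays did not overlap, and it fell by 1.5 ± 0.23 on the log2 scale (2.83-fold, adjusted p = 0.000608). XTH32, which cuts and rejoins xyloglucan chains, measured 4.37, 5.07 and 4.09 against 3.27, 3.25 and 3.24 (2.39-fold lower, adjusted p = 0.000367). The 3 late values were nearly equal, whereas those of tube A spread over about a unit. The alpha-expansins EXPA4 and EXPA15 fell by 1.08 (adjusted p = 0.00154) and 1.03 (adjusted p = 0.00670), and the dim expansin-like EXLA3 by 0.48 (adjusted p = 0.0493). The root hair expansins EXPA7 and EXPA18 had 0.07 and 0.00, and XTH33 had -0.58 with an adjusted p of 0.0811.

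GH9B8, an endoglucanase of glycosyl hydrolase family 9, fell 2.87-fold (adjusted p = 5.19e-05), from 6.01, 6.48 and 6.42 to 4.88, 4.61 and 4.86. Its groups were more than 1 unit apart. Other wall genes, named here after their values had been seen, were GH9C2 of the same family, which fell by 0.98 (adjusted p = 0.000495), COB, the COBRA protein that orients cellulose in elongating root cells, which fell by 0.53 (adjusted p = 0.00131), and TBL33, which fell by 1.11 (adjusted p = 0.000198). In the list of wall synthesis genes 2 of 16 fell (12.5%, beside 2.76% over all). They were the pectin methylesterase ATPMEPCRB (by 0.60) and the xylan gene IRX15-L (by 0.54). In that list CSLD2, a cellulose synthase-like protein of root hairs, rose by 0.68 (adjusted p = 0.00203), and the median was -0.02. With the tube block ATPMEPCRB, IRX15-L and CSLD2 lost their call (adjusted p = 0.287, 0.382 and 0.0636).

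Of the 12 largest falls, 10 concerned loci without a name in the annotation used. AT4G01390 fell furthest, from 4.43, 5.09 and 5.36 to 2.83, 2.5 and 2.66 (4.92-fold, adjusted p = 0.000111). AT5G62360 fell from 5.00, 4.72 and 4.87 to 3.04, 3.13 and 2.58 (3.84-fold, adjusted p = 0.000147), and its neighbour AT5G62350 fell by 0.79 (adjusted p = 0.00333). For AT5G62360 every late array was far below every array of tube A. AT1G72230 had the smallest p among the falls, at 4.61, 5.03 and 4.93 against 3.33, 3.28 and 3.34 (a difference of -1.53 ± 0.14, adjusted p = 4.79e-06). AT4G11190 fell from a high level, 8.43, 8.65 and 8.74, to 7.33, 6.93 and 7.47, and its neighbour AT4G11210 fell by 0.86 (adjusted p = 0.0406). AT1G45015 fell by 1.81, AT1G64370 by 1.52, AT4G24780 by 1.49, AT3G52900 by 1.40, AT3G45700 by 1.36 and AT3G45160 by 1.36, with adjusted p between 4.67e-05 and 0.00167. With the tube block AT3G45160 lost its call (adjusted p = 0.0561). AT5G62360 and AT3G45700 were known from earlier results of these data.

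Among hormone and transport genes, GH3.17, which joins the auxin indole-3-acetic acid to glutamate and so inactivates it, fell from 5.62, 5.78 and 6.26 to 4.83, 4.31 and 4.61 (2.47-fold, adjusted p = 0.000469). It was the only call among 16 measured auxin genes, whose median was -0.02. The vacuolar sugar carriers moved in opposite directions. The fructose carriers SWEET17 and SWEET16 fell by 0.97 (adjusted p = 0.00255) and 0.67 (adjusted p = 0.00500), and SWEET2, a vacuolar glucose carrier of roots, rose from 4.32, 4.63 and 4.42 to 5.25, 6.20 and 5.25 (2.15-fold, adjusted p = 0.0146). With the tube block SWEET17, SWEET16 and SWEET2 lost their call (adjusted p = 0.0724, 0.108 and 0.199). None of them passed against tube B either (adjusted p = 0.104, 0.313 and 0.181). With DTX50 they made 2 rises and 2 falls among 17 listed transporters (11.8% each, beside 2.85% and 2.76% over all). These 17 were SWEET carriers and, of the MATE family, DTX50 only, without a phosphate transporter. Of them 5 were brighter than the median of the arrays. NPF6.2 (AT2G26690) fell by 0.63 (adjusted p = 0.0133, and 0.187 with the tube block). It was the only call among 14 listed nitrate and peptide transporters. The list missed AT3G45700, also an NPF transporter. That gene fell by 1.36 (adjusted p = 4.67e-05) and kept its call with the tube block (adjusted p = 0.00572).

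Small secreted peptides had 1 rise, RALFL15 (by 0.70), and 3 falls, LCR69, CLE25 and LCR68 (by 0.52, 0.41 and 0.42), among 128 measured (0.781% and 2.34%, beside 2.85% and 2.76% over all). No member was called among 5 glutaredoxins or 5 histone genes, whose median was -0.24. The 4 measured gravitropism genes lay between -0.14 and 0.68, with AT1G72490 the highest at an adjusted p of 0.0752.

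**Figure D3:**
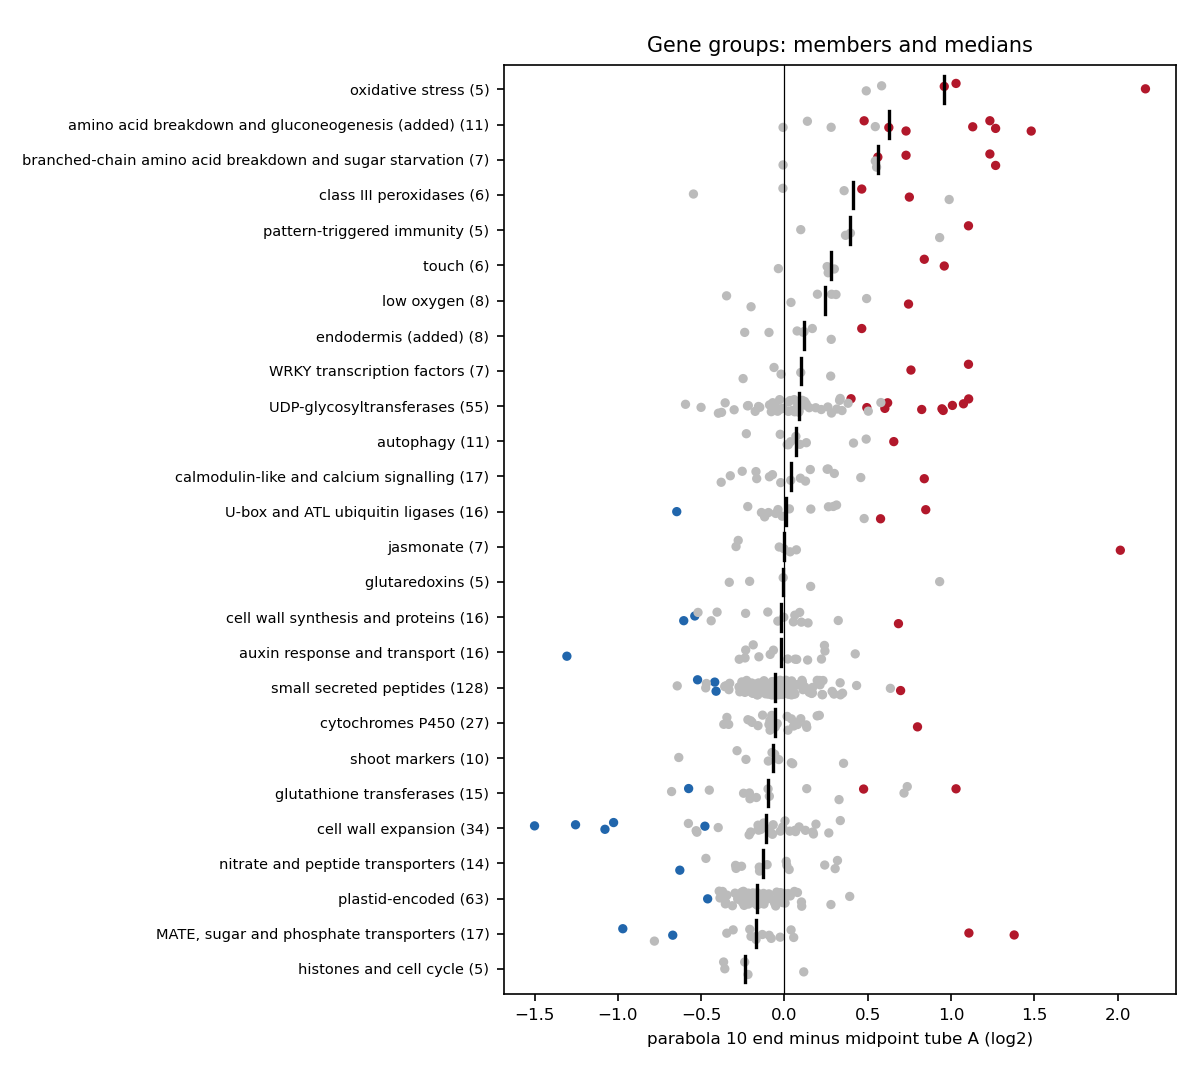
Differences between parabola 10 end and midpoint tube A (x axis, log2) for the measured members of the gene groups with at least 5 of them (y axis, number measured in parentheses); red points were called higher, blue points lower, grey points were not called, black bars are medians, and groups marked as added were drawn up after values had been seen. Calls stand to the right for UDP-glycosyltransferases and amino acid breakdown and to the left for cell wall expansion.

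Markers of other tissues moved little. The roots were cut from shoots, and none of 10 shoot markers (photosystem, light-harvesting and chlorophyll synthesis genes) was called. Their mean level was 3.51, 3.55 and 3.32 in tube A and 3.25, 3.42 and 3.41 at the end of parabola 10, and the ranges overlapped. PORB, which makes chlorophyllide, had the largest difference among them, at -0.63 with an adjusted p of 0.168. Of 63 plastid-encoded genes 1, psbN, was called, with a fall of 0.46 (adjusted p = 0.0385). As a group these genes leaned down, with a median of -0.16, 10 of 63 above 0 and overlapping mean levels of 9.80, 9.94 and 10.02 against 9.50, 9.95 and 9.89. The part of this lean in other results was not tested. The root hair expansins EXPA7 and EXPA18 had mean levels of 3.85 and 2.84 in tube A and 3.92 and 2.85 late. EXPA18 was thus below the array median of 2.99 in both groups. All 8 endodermis markers, a list added later, lay above that median over the 21 arrays, as did 5 of the 10 shoot markers. These levels do not settle the root label.

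The second midpoint tube gave a further view of these genes, since tube B was fixed at the same moment as tube A. Parabola 10 end differed from tube B in 147 probe sets (0.879%), 44 higher (0.263%) and 103 lower (0.616%), and tube A differed from tube B in 238 (1.42%), 46 higher (0.275%) and 192 lower (1.15%). All of these comparisons share arrays, so their values are set side by side below and no overlap is computed. The counts rest on few arrays. With the tube as a random block they were 2 and 1, and with only the compared arrays 35 and 0. Without 1 array they ran from 32 to 106 and from 33 to 383. The correlation of that block (0.221) was set from the gap between tubes A and B, so its count for these tubes is no separate test.

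For one group of genes tube A stood below tube B, and parabola 10 end was close to tube B. WRKY22 measured 4.99, 4.88 and 4.48 in tube B, above all arrays of tube A and overlapping the late arrays. Its difference of tube A from tube B was -1.32 (adjusted p = 0.00181), and that of parabola 10 end from tube B was -0.22 (adjusted p = 0.733, SE 0.19 in each comparison). UGT76B1 measured 8.23, 8.36 and 7.81 in tube B. The corresponding values were -1.05 (adjusted p = 0.00216) and 0.06 (adjusted p = 0.940). STZ had -0.79 (adjusted p = 0.0173) and 0.17, PUB22 had -0.82 (adjusted p = 0.00753) and 0.03, UGT73B4 had -0.89 (adjusted p = 0.0196) and 0.19, and WRKY6 had -0.53 (adjusted p = 0.0124) and 0.23. DTX50 (AT5G52050) had -1.16 (adjusted p = 0.0132) and 0.22. AT1G17147, UGT73D1, UGT73B2, UGT87A2 and PUB23 were alike in this, with tube A below tube B by 0.50 to 1.28 and parabola 10 end within 0.18 of tube B. The defence regulators and glycosyltransferases of this paragraph were thus lower in tube A than in tube B and at the end of parabola 10. No tube B values are given here for the other called glycosyltransferases.

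For another group tubes A and B did not differ by the call rule, and parabola 10 end was called against each. The tubes were not close for all of these genes. Tube A minus tube B was 0.48 for GI (adjusted p = 0.103), -0.46 for AER, 0.42 for XTH32 and 0.39 for AT2G38823. The GI arrays of the midpoint tubes did not overlap. PPDK measured 4.57, 3.77 and 5.08 in tube B, where parabola 10 end was higher by 1.57 (adjusted p = 0.0123), while tube A and tube B differed by 0.09. AT1G21400 was higher than in tube B by 1.33 (adjusted p = 0.0296), ASPGB1 by 1.02 (adjusted p = 0.0161) and MCCB by 0.84 (adjusted p = 0.0329). GI was higher than in tube B by 1.38 (adjusted p = 5.37e-05). GH9B8 measured 6.46, 6.07 and 6.44 in tube B and was lower late by 1.54 (adjusted p = 0.000148), with tube A and tube B apart by -0.02. EXPB3 was lower by 1.27 (adjusted p = 0.0122), XTH32 by 0.83 (adjusted p = 0.0315) and AT5G62360 by 1.88 (adjusted p = 0.00108). AT2G41730 was higher by 2.19 (adjusted p = 0.0171), although tube B was spread from 1.43 to 4.17. AER and AT2G38823 also passed, at 1.20 and 1.77. AKINBETA1, at 0.59 (adjusted p = 0.0802), and EXPA4 and EXPA15, at -0.57 and -0.38, did not pass against tube B.

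JRG21 and AT1G10585 took a middle place, called in all 3 comparisons. JRG21 measured 4.13, 4.23 and 4.83 in tube B, above tube A by 1.19 (adjusted p = 0.00184, given as tube B over tube A) and below parabola 10 end by 0.83 (adjusted p = 0.0299). AT1G64370, among the 12 largest falls, was higher in tube A than in tube B by 1.10 (adjusted p = 0.00753) and lower late than in tube B by only 0.42 (adjusted p = 0.412).

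PRN2 (AT2G43120), a pirin, and AT1G50590 showed what this comparison did not call. PRN2 measured 8.27, 7.50 and 8.19 in tube A and 8.74, 8.95 and 8.13 late (0.62 ± 0.23, adjusted p = 0.134), and the arrays overlapped. In tube B it measured 9.64, 9.96 and 9.39, and both differences from tube B were called, at -1.68 for tube A (adjusted p = 0.00179) and -1.06 for parabola 10 end (adjusted p = 0.0296). AT1G50590 had -0.16 (adjusted p = 0.837), with tube A and parabola 10 end lower than tube B by 1.55 and 1.71 in size (adjusted p = 0.00181 and 0.00108).

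**Figure D4:**
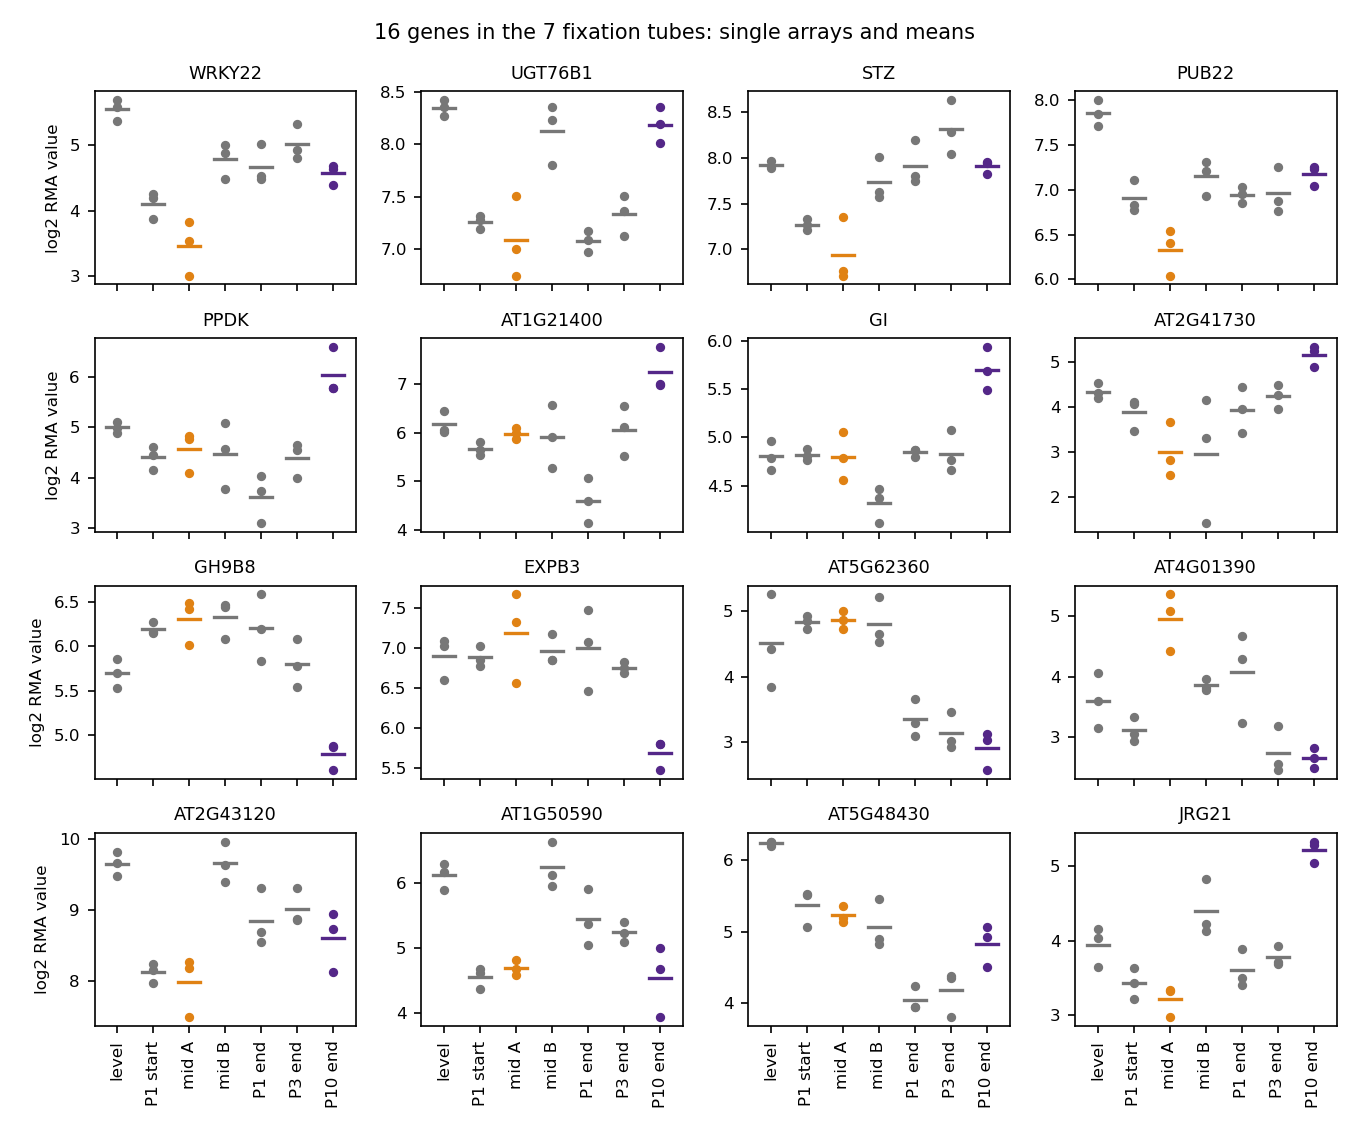
Log2 RMA values (y axis, its range differs between panels) of 16 genes in the 7 tubes (x axis: level flight, start of parabola 1, midpoint tubes A and B, ends of parabolas 1, 3 and 10); points are single arrays, lines are means of 3, orange is midpoint tube A and purple is parabola 10 end. In the top row tube A is the lowest or near the lowest tube, PPDK, AT1G21400 and GI peak at the end of parabola 10, and GH9B8 and EXPB3 are lowest there.

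Across all tubes, the high level at the end of parabola 10 was not reached elsewhere for GI, at 5.70 ± 0.22 (SD, n = 3) beside means of 4.32 to 4.85 in the other 6 tubes. PPDK stood at 6.04 ± 0.47 there and between 3.62 and 5.00 elsewhere, although its difference from level flight missed the threshold (1.05, adjusted p = 0.0748). EXPB3 stood at 5.69 ± 0.19 there and between 6.75 and 7.19 elsewhere. ASPGB1 differed from these, since level flight was as high, at 7.73 ± 0.17 beside 7.74 ± 0.21. UGT76B1, by contrast, had 8.35 in level flight, before any parabola, and 7.07 to 7.33 at the start and end of parabola 1 and the end of parabola 3. Parabola 10 end differed from level flight by -0.16 for this gene (adjusted p = 0.724). WRKY22 was highest in level flight, at 5.54 ± 0.16. AT5G62360 was already low at the ends of parabolas 1 and 3, at 3.35 and 3.14 beside 2.92 at the end of parabola 10, while tube A, tube B and the start of parabola 1 had 4.86, 4.80 and 4.83.

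The called probe sets as a whole were placed in the other tubes on a scale that sets tube A to 0 and parabola 10 end to 1. For the 477 higher ones the median position was 0.81 in level flight, 0.28 at the start of parabola 1, 0.66 in tube B, 0.57 at the end of parabola 1 and 0.72 at the end of parabola 3. For the 461 lower ones it was 0.57, 0.39, 0.45, 0.51 and 0.62 in the same order. The start of parabola 1 was thus the nearest to tube A in both sets, and level flight the nearest to parabola 10 end in the higher set. Because the sets were chosen for the gap between tube A and parabola 10 end, these positions are a description.

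**Figure D5:**
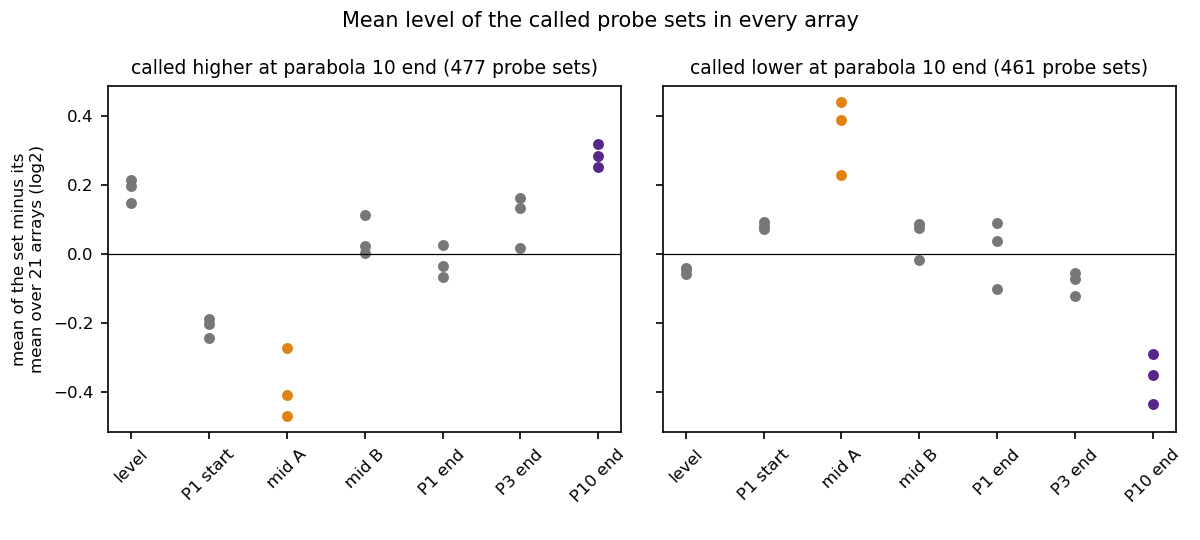
Mean over the 477 probe sets called higher (left) and the 461 called lower (right) in every array, each minus the mean of that set over 21 arrays (y axis, log2), by tube (x axis, as in the plot of 16 genes); each point is 1 array, orange is midpoint tube A and purple is parabola 10 end. Tube A and parabola 10 end lie at the extremes because they chose the sets, and the 3 arrays at the start of parabola 1 lie between -0.24 and -0.19 on the left.

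Arrays of other tubes gave further values for direction, although all 21 arrays entered the fit and so helped to set the variances behind the calls. Between the start of parabola 1 and the end of parabola 3, which share no array with the comparison, 384 of the 477 higher probe sets moved up (80.5%), beside 51.2% of all probe sets, and 104 of them were called higher and 2 lower. Of the 461 lower ones 336 moved down (72.9%), beside 48.8% of all, and 24 were called lower and none higher, where limma called 301 of all probe sets (1.80%), 214 of them higher (1.28%) and 87 lower (0.520%). WRKY22 rose there by 0.91 (adjusted p = 0.0162), STZ by 1.04 (adjusted p = 0.00173), CML38 by 1.24 (adjusted p = 0.00173), UGT73B4 by 1.10 (adjusted p = 0.00360) and DTX50 (AT5G52050) by 1.32 (adjusted p = 0.00360), and AT5G62360 fell by 1.69 (adjusted p = 0.00105). PPDK, GI, ASPGB1 and MCCB had -0.01, 0.02, 0.17 and 0.04 there, with adjusted p of at least 0.789. AT1G21400 had 0.40 (adjusted p = 0.622) and EXPB3 had -0.13. UGT76B1, PUB22 and UGT73D1 had 0.08, 0.06 and 0.15 with adjusted p of at least 0.836, so the defence and detoxification genes passed there only in part, and none of the amino acid breakdown genes named here passed.

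Against tube B, the end of parabola 3 gave 57.0% of the higher set the same sign, beside 50.8% of all, and 72.9% of the lower set, beside 49.2%. From the start to the end of parabola 1 the shares were 68.3% beside 56.0%, and 60.7% beside 44.0%. Probe sets share arrays and are not independent of each other, so these shares are given without a test.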

How the data were processed

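The log2 expression values are those the authors deposited for 21 AraGene 1.0 ST arrays. Per the submitters' processing notes they were made with RMA (background correction, quantile normalization, probe summary) in oligo under R 4.0.0 and annotated to TAIR10. Array medians ran from 2.92 to 3.04, and arrays have no counting depth, so their number limits the precision. Of 38408 probe sets, 17481 have a gene in the platform annotation, 759 of them several and 16722 exactly 1, and 20927 were unnamed. By Entrez ID, 16574 of the 16722 matched the RefSeq table of TAIR10.1, which gave names and neighbours.

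All 21 arrays entered 1 limma fit (limma 3.58.1, R 4.3.3) over the 17481 named probe sets with a mean per tube and 14 residual degrees of freedom. P-values were Benjamini-Hochberg adjusted over these, with a threshold of 0.05, and no minimum level was set. The brightest probe set stood for a gene. Genes were named if they passed, had arrays that did not overlap, and had a higher group mean above 2.99, taking the 12 largest rises and falls, up to 4 passing members per list, and genes of earlier results. Other list members are named with their values. Lists were matched on symbols or loci, so unmatched members were not analysed here. The members and lists were chosen with earlier results of these data known, and 4 lists (amino acid breakdown and gluconeogenesis, root hair, endodermis, shoot) after values had been seen. Tested on simulated data for this comparison (17481 probe sets, 200 changed in each of 5 runs), the fit recovered 90.4% of changes of 1 and 38.4% of changes of 0.5, and 4.86% of calls were false. The simulated noise was independent between arrays and held no tube effect, so the 4.86% does not measure the false calls in these data. The settings varied were robust estimation with a trend of the variance, bright probe sets only, the compared arrays only, array weights, cyclic loess, all or single-gene probe sets, replicate or tube blocks, and leaving out each array.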

Additional observations from a re-analysis of the deposited data

Results flagged for a closer look

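The genes here were picked out because midpoint tubes A and B, fixed at the same moment, differed from each other in the limma fit (adjusted p under 0.05), so that a difference between parabola 10 end and the midpoint depends on the tube chosen. Values are tube A minus tube B on the log2 scale. Tube A was lower for AT2G43120 (-1.68), AT3G28510 (-1.56), AT1G50590 (-1.55), WRKY22 (-1.32), AT1G17147 (-1.28), JRG21 (-1.19), AT5G52050 (-1.16), UGT73D1 (-1.13), AT1G76470 (-1.08), UGT76B1 (-1.05) and AT4G37030 (-0.99). Smaller differences in the same direction were those of UGT73B4 (-0.89), PUB22 (-0.82), STZ (-0.79), AT1G10585 (-0.78), UGT73B2 (-0.75), UGT87A2 (-0.54), WRKY6 (-0.53), PUB23 (-0.50) and CSLD2 (-0.50). Tube A was higher for AT3G45700 (0.66) and AT1G64370 (1.10). The cause was not tested.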

How the results depend on the processing

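The main count of 938 probe sets called between parabola 10 end and tube A (477 higher, 461 lower) stayed within 1.5 times under all settings tried except 2 settings and some arrays left out. With only the compared arrays it was 433 (213 and 220), for parabola 10 end against tube B 35 (4 and 31) and for tube A against tube B 0 (0 and 0), beside 2714, 2057 and 1734 by limma at an unadjusted p under 0.05. With the tube as a random block the counts were 103 (49 and 54), 2 (1 and 1) and 1 (0 and 1), beside 1472, 725 and 865 unadjusted. Array weights gave 255 (88 and 167) for parabola 10 end against tube B, all probe sets of the table gave 83 (21 and 62) for that comparison and 139 (23 and 116) for tube A against tube B, and bright probe sets only gave 295 lower for the latter. Leaving out 1 array gave 490 to 822 (257 to 465 higher, 233 to 440 lower) for the main comparison, where leaving out parabola 10 end replicate 2 gave 490, tube A replicate 2 gave 493 and parabola 10 end replicate 1 gave 600. It gave 32 to 106 (9 to 46, 23 to 66) for parabola 10 end against tube B and 33 to 383 (7 to 75, 26 to 308) for tube A against tube B. Against tube B the count moved by over 1.5 times without parabola 10 end replicates 1 (75), 2 (32) and 3 (89) and tube B replicates 1 (43) and 2 (92), and between tubes A and B without tube A replicates 1 (148), 2 (73) and 3 (383) and tube B replicate 2 (33). Replicate numbers did not pair the arrays, since deviations of same-numbered arrays of tube A and parabola 10 end correlated at -0.011, -0.016 and -0.013, and the fit with a replicate block called 894. Of 76 named genes, 68 passed, 45 of these in every setting other than the tube block and the compared arrays only, and 25 with the tube block. AT1G50590, not called, ranged from -0.39 to 0.15 with 1 array left out and changed sign only without parabola 10 end replicate 3. Dim probe sets limit the calls, with 3 higher and 6 lower in the dimmest quartile.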

Other observations

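Probe sets without a gene in the annotation held calls as well. When all probe sets of the table were fitted together, 485 of 20927 unnamed probe sets were higher at the end of parabola 10 than in tube A and 418 were lower. In the same fit 399 of 16722 probe sets with 1 gene were higher and 352 lower. Unnamed probe sets were thus called about as often as the others. Among 10349 pairs of neighbouring genes on a chromosome, 23 had both members called higher, 16 both lower and 9 in opposite directions. At least 1 member was called higher in 574 pairs and lower in 545, and no expected number of pairs was computed. The pairs called together included UGT73B5 with UGT73B4, UGT73D1 with UGT73C7, AT4G11190 with AT4G11210 and AT5G62350 with AT5G62360.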
